A study of Mus musculus with 6 samples.

Results

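Oxidative phosphorylation (OXPHOS) subunit genes of the nucleus were followed in 6 mRNA-seq libraries of mouse embryonic stem cells (ESCs). The genes were taken by symbol: the *Nduf* genes of the a, b, c, s and v series, *Sdha* to *Sdhd*, every gene starting with *Atp5*, every gene starting with *Uqcr* other than *Uqcrc1*, and *Cox4i1*, *Cox5a* and *Cox5b*. That gave 67 of the 19489 genes in the table, 36 of complex I, 4 of complex II, 7 of complex III, 3 of complex IV and 17 of complex V. The groups were *Dppa3* overexpression (OE) ESCs, with libraries OE-1, OE-2 and OE-D7, and control (Con) ESCs of wild type genotype, with libraries Con-1, Con-2 and Con-D7. In the study's methods, OE cells carried *Dppa3* under a CAG promoter and Con cells the empty vector. Stable lines came from picked colonies under puromycin, in serum medium with LIF. No source explains the label D7, and the study heads the averages of libraries 1 and 2 as D0, so D0 here means those 4 libraries. The strain labels differ for each library, from 129S2/SvPas to 129S7/SvPas in sample order, and the ESC line sequenced is not named.

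In the inner mitochondrial membrane, complex I takes electrons from NADH and complex II takes them from succinate. Complex III passes them on to cytochrome c, and complex IV reduces oxygen with them. Complexes I, III and IV pump protons, and complex V, the ATP synthase, makes ATP from the gradient. Most subunits are encoded in the nucleus and a few in the mitochondrial genome, and complex II alone is wholly nuclear. Naive mouse ESCs are known for using both glycolysis and OXPHOS.

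Estimated counts summed to between 17408954 and 18176939 per library. *Dppa3* stood at 131 FPKM (fragment counts corrected for transcript length and depth) in OE-D7, 279 in OE-2 and 279 in OE-1, against 26.2 in Con-D7, 3.89 in Con-2 and 6.09 for Con-1, so each OE library was above each Con library. The D7 pair stood apart in marker genes. The 6 pluripotency markers summed to 1168 FPKM in OE-D7 and 1278 in Con-D7, against 1753 to 2109 in the other 4 libraries. The 6 trophectoderm markers summed to 1159 FPKM in OE-D7 and 646 in Con-D7, against 23.2 to 42.4 in the others, mostly through the keratins *Krt8* and *Krt18*. The 9 fibroblast or feeder markers summed to 187 and 75.9 FPKM in OE-D7 and Con-D7, against 33.3 to 61.8. Of these sums *Col1a1* alone held 129 FPKM in OE-D7 and 38.0 in Con-D7, against 0.80 to 1.81 in the others. *Dcn* and *Lum* were at or near 0 in every library. In bulk libraries fewer cells of a type and less RNA per cell cannot be told apart.

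All 67 genes were expressed in every library and passed the minimum mean of 0.5 FPKM. The lowest estimated count of any was 70, for *Atp5s*, and the next lowest gene, *Ndufa2*, had at least 219. *Atp5b*, the catalytic beta subunit of the ATP synthase, had the highest level, 932 FPKM in OE-D7 and 952 in Con-D7, against 1049 (OE-2), 1129 (Con-2), 968 (OE-1) and 1013 (Con-1). At the other end stood *Atp5s*, which RefSeq names *Dmac2l* and which is not a core subunit of the synthase, with 5.63 FPKM in OE-D7 and 4.46 in Con-D7, against 7.16 (OE-2), 6.66 (Con-2), 2.77 (OE-1) and 2.27 (Con-1). In complex I, *Ndufa4* was highest, at 312 to 399 FPKM. Its protein was first assigned to complex I and is now counted with complex IV. The complex II genes lay between 51.6 and 85.2 FPKM in all libraries. *Cox4i1*, a subunit of the oxygen-reducing complex IV, lay between 308 and 369 FPKM. The 67 genes together took 0.793% of the counts in OE-D7 and 0.791% in Con-D7, against 0.907% in OE-2, 0.936% in Con-2, and 0.862% in each of OE-1 and Con-1. Both D7 libraries were thus below the other 4 in this share.

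**Figure D1:**
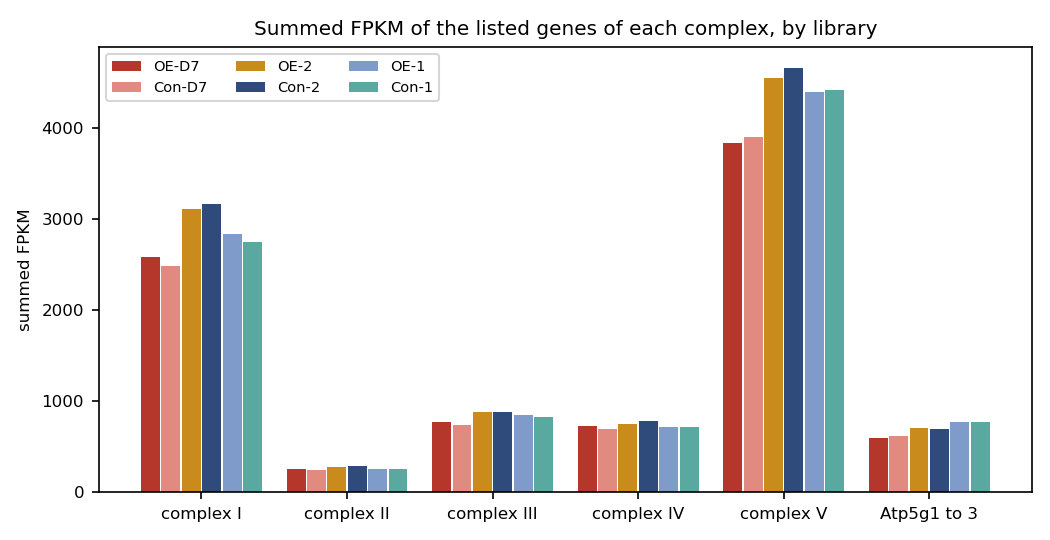
Summed FPKM (y axis) of the listed genes of each complex and of *Atp5g1*, *Atp5g2* and *Atp5g3* (x axis) in the 6 libraries (bars). The complex V genes sum to 3839 FPKM in OE-D7 and 3906 in Con-D7, below the 4402 to 4658 of the other libraries, and the complex II and complex IV sums differ less.

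The D7 libraries were compared with the 4 D0 libraries with genotype as a term, and 57 of the 67 genes had a log2 fold change below 0. The median was -0.19, against -0.03 over all 13809 genes tested. By edgeR's quasi-likelihood test with Benjamini-Hochberg adjustment, 5 genes were lower and 0 higher, where 3.06% of all genes tested were lower and 6.77% higher. The 5 were *Ndufs7*, *Ndufa11*, *Ndufa12* and *Ndufb10* of complex I and *Atp5j2* of complex V, that is 7.46% of the 67. At an unadjusted p under 0.05 the numbers were 22 lower and 0 higher, against 1864 lower and 2258 higher of all 13809 genes tested. DESeq2 and limma also called 0 of the 67 higher. Libraries of the same number moved together across genes, and with the pair as a block 29 genes were lower and 1 higher, where 23.6% of all genes tested were lower and 25.6% higher. The D7 libraries are 1 pair, so this block cannot adjust or replicate D7. It only takes the difference between pairs 1 and 2 out of the spread. Of those 29, 16 belong to complex I, 1 to complex II, 4 to complex III, 0 to complex IV and 8 to complex V. In 36 of the 67 genes both D7 libraries lay below all 4 D0 libraries in FPKM, and in 2 above, where 23.6% of all genes tested lay below and 23.6% above. The count of 5 fell to 0 without OE-1 or OE-2 and to 2 without Con-1, and was 6 without Con-2. Over all genes tested, 68 were lower without OE-1, 58 without OE-2, 306 without Con-1 and 918 without Con-2, against 422 with all 6 libraries. A run without OE-D7 or Con-D7 leaves 1 D7 library, so calls there are not counted. With the block, 21 genes were lower without OE-1, 24 without OE-2, 19 without Con-1 and 20 without Con-2. Over all genes tested, 2513, 2400, 2339 and 2857 were lower in the same order. The block median of the 67 was -0.198 without OE-D7 and -0.134 without Con-D7. Within genotypes the median D7 minus D0 difference in log2 CPM was -0.15 in OE and -0.20 in Con, with 52 and 58 of 67 genes below 0.

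**Figure D2:**
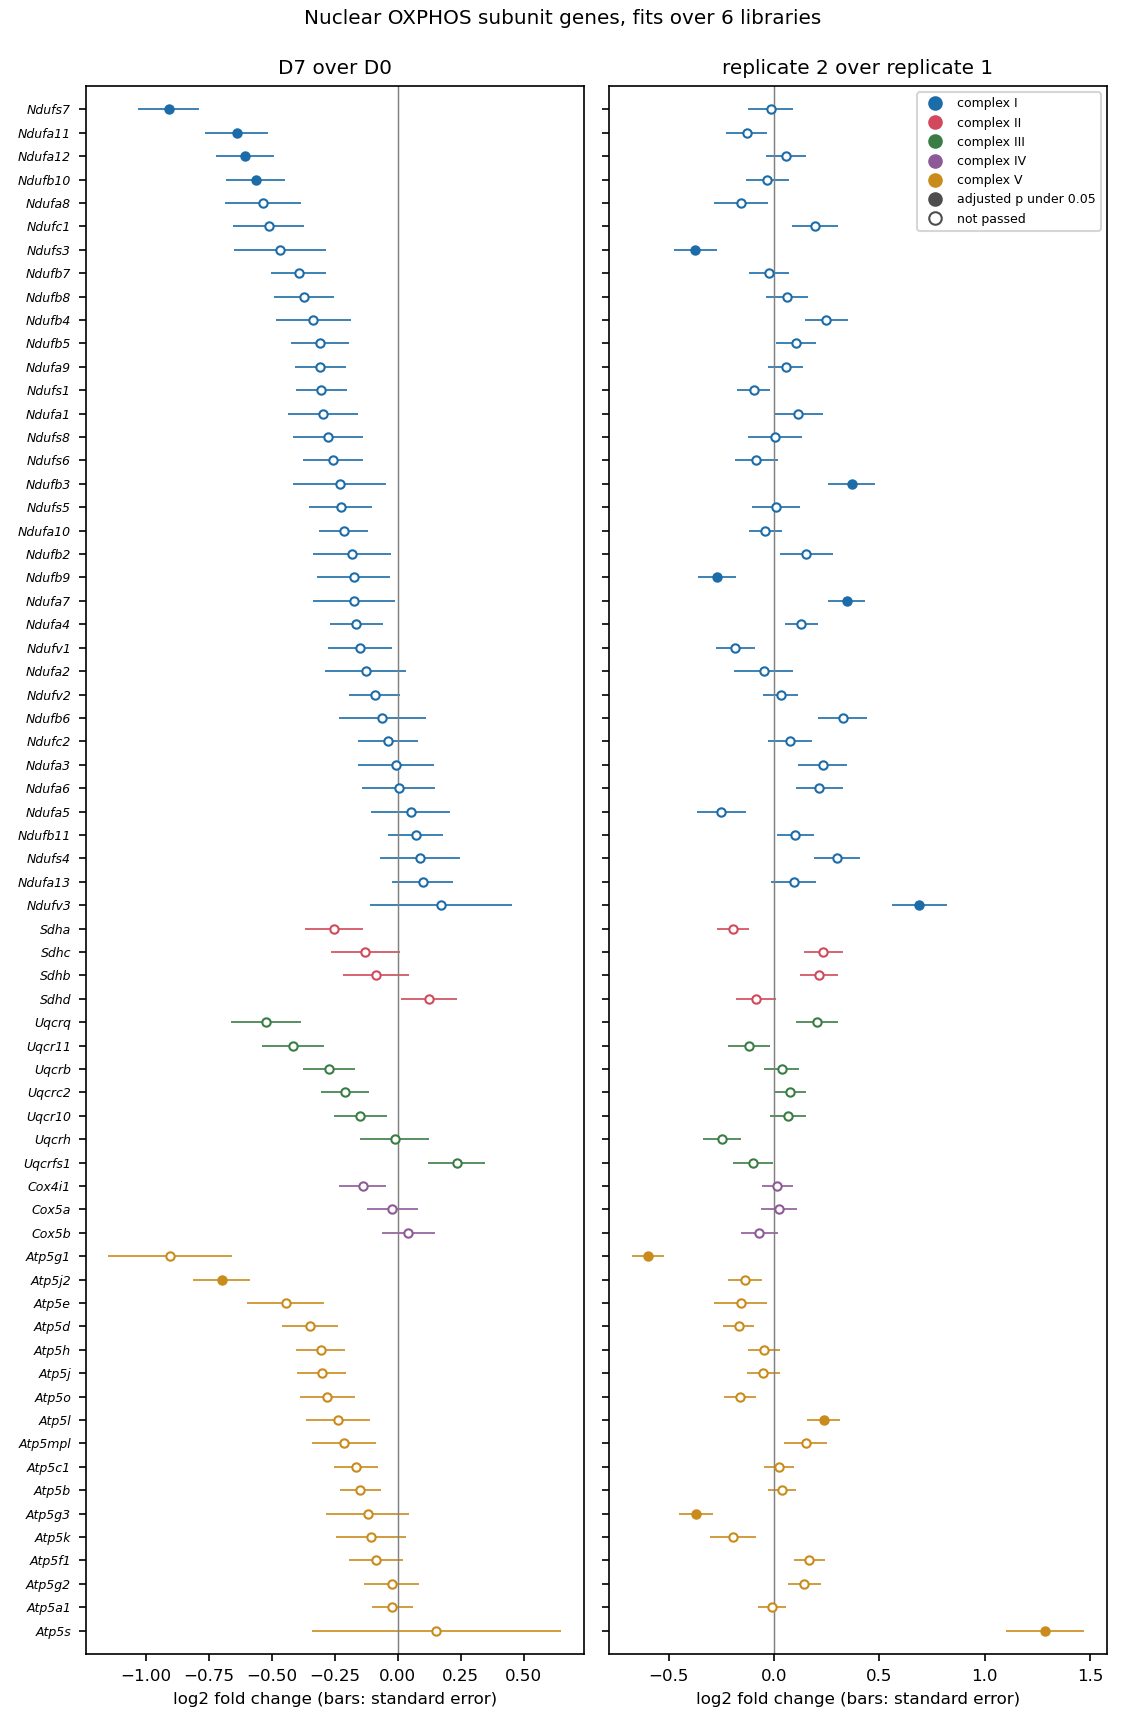
Log2 fold change (x axis) of the genes reported singly (rows, grouped by complex) for D7 over D0 (left) and replicate 2 over replicate 1 (right). Points are estimates, bars standard errors, and filled points have an adjusted p under 0.05: 5 lower on the left, 5 higher and 4 lower on the right.

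Complex I joins core subunits conserved from bacteria, some of them mitochondrially encoded, with a larger set of accessory subunits. All 7 nuclear core genes were below 0 for D7, with a median of -0.28, and the 29 others had a median of -0.21 with 23 below 0. *Ndufs7*, the core subunit that holds the last iron-sulfur cluster before ubiquinone, had 25.9 FPKM in OE-D7 and 29.4 in Con-D7, against 51.1 (OE-2), 55.3 (Con-2), 47.6 (OE-1) and 53.0 (Con-1). Both D7 libraries lay far below all 4 D0 libraries, which differed little among themselves. Its log2 fold change was -0.91 (SE 0.12, adjusted p = 0.0148). Of the other core genes, *Ndufs1*, *Ndufs3* and *Ndufs8*, all of the arm that reaches into the matrix, had log2 fold changes of -0.30, -0.47 and -0.28 without the block, short of the threshold. With it *Ndufs1* and *Ndufs3* passed (adjusted p = 0.0088 and 0.00546) and *Ndufs8* did not (0.0754). *Ndufv1*, which binds FMN and NADH, and *Ndufv2* had values of -0.15 and -0.09 and passed in neither fit.

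Among the accessory genes, *Ndufa12*, of the matrix arm, had 123 FPKM in OE-D7 and 109 in Con-D7, against 187 (OE-2), 184 (Con-2), 164 (OE-1) and 169 (Con-1). Its log2 fold change was -0.61 (SE 0.11, adjusted p = 0.0327). *Ndufa11*, a membrane subunit at the contact with complex III in supercomplexes, had 14.6 FPKM in OE-D7 and 13.6 in Con-D7, against 21.4 (OE-2), 21.7 (Con-2), 23.0 (OE-1) and 21.1 (Con-1). For *Ndufb10*, of the membrane arm, the levels were 53.8 FPKM in OE-D7 and 50.4 in Con-D7, against 78.8 (OE-2), 77.8 (Con-2), 75.1 (OE-1) and 74.6 (Con-1). In each of these 3 genes the 2 D7 libraries lay together below the 4 D0 libraries. *Ndufa11* and *Ndufb10* had log2 fold changes of -0.64 (SE 0.12, adjusted p = 0.0356) and -0.56 (SE 0.12, adjusted p = 0.0417). Next in size were *Ndufa8* and *Ndufc1*, at -0.54 and -0.51, which passed only with the block (adjusted p = 0.00672 and 0.00416). A further 8 genes, *Ndufb7*, *Ndufb8*, *Ndufb4*, *Ndufb5*, *Ndufa9*, *Ndufa1*, *Ndufs6* and *Ndufa10*, were lower with the block, at -0.39 to -0.21. *Ndufa6*, *Ndufa13*, *Ndufs4*, *Ndufb11*, *Ndufa5* and *Ndufv3* had log2 fold changes of 0.00, 0.10, 0.09, 0.07, 0.05 and 0.17, and passed in neither fit.

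Complexes II, III and IV had D7 medians of -0.11, -0.21 and -0.02, and none of their genes passed without the block. *Sdha*, the flavoprotein that oxidizes succinate, had 65.8 FPKM in OE-D7 and 64.0 in Con-D7, against 73.1 (OE-2), 75.4 (Con-2), 78.4 (OE-1) and 80.5 (Con-1), with a log2 fold change of -0.25 that passed with the block (adjusted p = 0.017). The iron-sulfur subunit gene *Sdhb* and the membrane anchor genes *Sdhc* and *Sdhd* were at -0.09, -0.13 and 0.12 and did not pass. In complex III the small subunit genes *Uqcrq*, *Uqcr11* and *Uqcrb* and the core gene *Uqcrc2* were lower with the block, at -0.52, -0.41, -0.27 and -0.21 on the log2 scale (adjusted p = 0.00265, 0.00648, 0.0178 and 0.0317). *Uqcrfs1*, the Rieske iron-sulfur protein of the same complex, went the other way, with 66.3 FPKM in OE-D7 and 61.7 in Con-D7, against 53.7 (OE-2), 54.4 (Con-2), 52.4 (OE-1) and 56.0 (Con-1). It was the only gene of the 67 called higher with the block, at 0.24 (SE 0.08, adjusted p = 0.0445), and the call was lost when any D0 library was left out. *Uqcrh* and *Uqcr10* were at -0.01 and -0.15 and passed in neither fit. Of complex IV, only *Cox4i1*, *Cox5a* and *Cox5b* were in the selection. They were at -0.14, -0.02 and 0.04, and none passed in either fit.

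In complex V the D7 median was -0.21 with 16 of 17 genes below 0. *Atp5j2*, subunit f of the membrane sector, had 162 FPKM in OE-D7 and 166 in Con-D7, against 249 (OE-2), 273 (Con-2), 264 (OE-1) and 272 (Con-1). Its log2 fold change was -0.70 (SE 0.11, adjusted p = 0.0227). In the catalytic head, *Atp5d* and *Atp5e* (delta and epsilon) had -0.35 and -0.45 and passed with the block (adjusted p = 0.00404 and 0.0139), while *Atp5a1*, *Atp5b* and *Atp5c1* (alpha, beta and gamma) had -0.02, -0.15 and -0.17 and did not. The stalk genes *Atp5h*, *Atp5j* and *Atp5o* lay between -0.31 and -0.28 and passed with the block, and *Atp5f1*, of the same stalk, was at -0.09 and did not. *Atp5l*, subunit g, was at -0.24 and passed with the block (adjusted p = 0.0243). *Atp5k* and *Atp5mpl* were at -0.10 and -0.21 and passed in neither fit.

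The c ring is the rotor that turns as protons pass. *Atp5g1*, *Atp5g2* and *Atp5g3* encode the same mature c subunit behind different import sequences. *Atp5g1* had 138 FPKM in OE-D7 and 129 in Con-D7, against 209 (OE-2), 198 (Con-2), 293 (OE-1) and 283 (Con-1). The 3 pairs took separate levels, with the D7 pair lowest and pair 1 highest. Its D7 log2 fold change was -0.90 (SE 0.25, adjusted p = 0.0765) without the block and -0.87 (SE 0.07, adjusted p = 8.93e-05) with it. *Atp5g2* had 274 FPKM in OE-D7 and 319 in Con-D7, against 319 (OE-2), 330 (Con-2), 269 (OE-1) and 280 (Con-1), and *Atp5g3* had 183 FPKM in OE-D7 and 174 in Con-D7, against 180 (OE-2), 168 (Con-2), 210 (OE-1) and 210 (Con-1). Their D7 log2 fold changes, -0.02 and -0.12, passed in neither fit. *Atp5g1* made up 23.2% of the summed FPKM of the 3 genes in OE-D7 and 20.7% in Con-D7, against 29.5% and 28.5% in OE-2 and Con-2, and 37.9% and 36.6% in OE-1 and Con-1. The 3 genes are near-identical over part of their coding sequence, and how the counting shared such reads was not tested.

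Since these genes for 1 protein parted in level, the 250 bases before each RefSeq start (GRCm38.p6, all on the minus strand) are shown, with matches to 3 motifs in capitals: GCATGCGC, which NRF1 binds, CCGGAAGT, which ETS factors bind, and CCAAT, all on both strands. They lie at chr11:96075632-96075881 for *Atp5g1*, chr15:102671048-102671297 for *Atp5g2* and chr2:73911327-73911576 for *Atp5g3*.
*Atp5g1*: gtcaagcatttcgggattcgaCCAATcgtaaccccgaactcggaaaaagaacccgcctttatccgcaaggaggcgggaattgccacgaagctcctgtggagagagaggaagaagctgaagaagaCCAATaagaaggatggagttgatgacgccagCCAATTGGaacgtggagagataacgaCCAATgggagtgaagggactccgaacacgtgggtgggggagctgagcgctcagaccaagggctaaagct
*Atp5g2*: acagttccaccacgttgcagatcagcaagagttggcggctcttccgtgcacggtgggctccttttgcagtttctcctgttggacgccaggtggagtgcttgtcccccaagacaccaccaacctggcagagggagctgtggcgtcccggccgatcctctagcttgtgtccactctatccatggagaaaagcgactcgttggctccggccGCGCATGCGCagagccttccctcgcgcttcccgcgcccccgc
*Atp5g3*: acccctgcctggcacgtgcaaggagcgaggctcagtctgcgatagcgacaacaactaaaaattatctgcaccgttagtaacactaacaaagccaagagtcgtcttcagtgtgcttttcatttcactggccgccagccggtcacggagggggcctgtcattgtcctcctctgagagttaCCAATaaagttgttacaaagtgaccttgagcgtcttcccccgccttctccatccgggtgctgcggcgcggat

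The *Atp5g1* window held 5 CCAAT matches, 2 of them overlapping on opposite strands. The *Atp5g2* window held none of these and 2 overlapping matches to GCATGCGC, and the *Atp5g3* window held 1 CCAAT match. No window held CCGGAAGT. Of the 67 genes, 56 matched a RefSeq window, and GCATGCGC was in 7 of them (12.5%), against 2.56% of 27025 genes. CCAAT was in 23 (41.1%), against 37.5%, and CCGGAAGT in 3 (5.36%), against 3.23%. These are matches of letters and not measured sites.

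**Figure D3:**
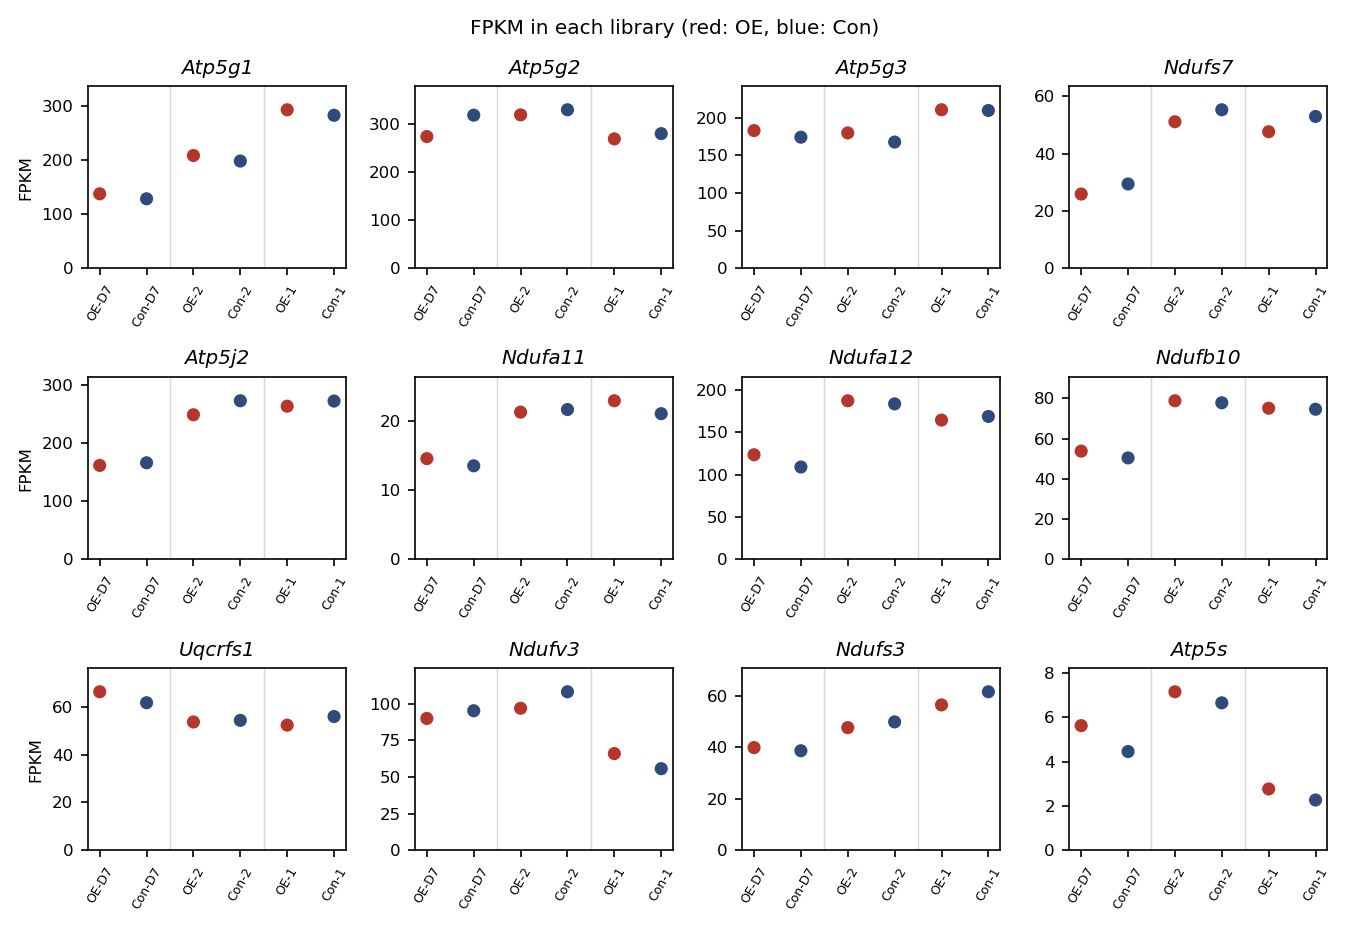
FPKM (y axis, from 0) of 12 OXPHOS genes in each library (x axis; red OE, blue Con; grey lines part the D7 pair, pair 2 and pair 1). In *Atp5g1* the D7 pair is lowest (138 and 129 FPKM) and pair 1 highest (293 and 283), while *Atp5g2* lies between 269 and 330 FPKM.

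OXPHOS subunit transcripts are short, and shorter genes were lower in D7 over the whole table. The lengths implied by count and FPKM ran from 260 to 2872 bases with a median of 668, against 2715 for all genes tested. Under 600 bases the median D7 log2 fold change was -0.23 for 26 OXPHOS genes and -0.16 for 305 others, and from 600 to 1000 bases it was -0.23 for 21 and -0.13 for 841 others. The median of the 67 genes was -0.05 after a smooth trend over length was subtracted. Trophectoderm markers, all 5 tested, were higher in D7, as were 4 of 7 fibroblast or feeder markers and 2 of 4 endoderm markers tested. Lower were 3 of 6 pluripotency and 1 of 4 endoderm markers. These calls are without the block, where 6.77% of all genes tested were higher and 3.06% lower. Of the fibroblast or feeder markers 1 went the other way, at -0.95 on the log2 scale, and passed only with the block (-0.93). The endoderm markers summed to 15.7 FPKM in OE-D7 and 10.1 in Con-D7, against 13.8 to 14.7 in the others. *Krt8* had 421 FPKM in OE-D7 and 250 in Con-D7, against 12.0 to 17.0 in the others, and *Pou5f1* had 312 and 384, against 575 to 683. The part of these in the OXPHOS result was not tested.

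**Figure D4:**
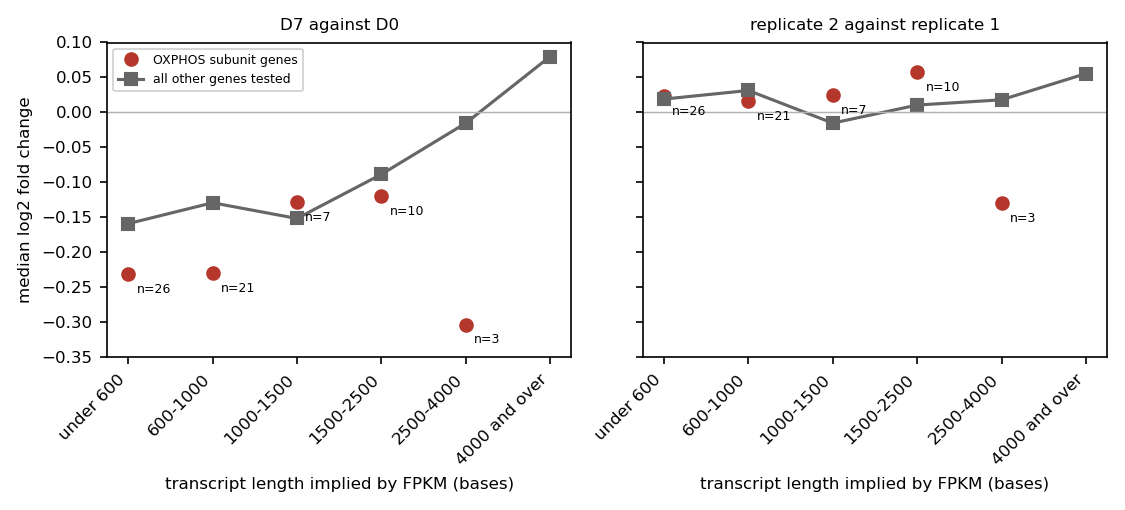
Median log2 fold change (y axis) by transcript length class (x axis, bases) for OXPHOS subunit genes (red, n beside each point) and all other genes tested (grey), for D7 against D0 (left) and replicate 2 against replicate 1 (right). For D7, the other genes run from -0.16 under 600 bases to 0.08 at 4000 and over.

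Other genes of the pathway were read from lists. Of all genes tested, 3.06% were lower and 6.77% higher in D7 without the block. Of 75 mitochondrial ribosomal protein genes, which make the mitochondrially encoded subunits, 4 were lower and 0 higher in D7, with a median of -0.36, and 46 were lower and 2 higher with the block. Of 43 assembly factor genes 3 were lower and 0 higher (median -0.28), and 17 lower and 3 higher with the block. Of 20 further OXPHOS subunit genes tested, 1 was lower, *Usmg5*, a small ATP synthase subunit, at -0.75 (SE 0.13, adjusted p = 0.0271), and with the block 6 were lower and 2 higher. The 2 were *Cox7a1* and *Cox7a2l*, at 0.74 and 0.62 (adjusted p = 0.00629 and 0.000701). The 6 were *Usmg5*, *Cox4i2*, *Cox8a*, *Uqcrc1*, *Cox6b2* and *Cycs*, at -0.75, -0.67, -0.49, -0.35, -0.33 and -0.19 (adjusted p = 0.000344, 0.0346, 0.00192, 0.00508, 0.0358 and 0.0378). This list of further subunit genes also counts *Cycs* (cytochrome c) and *Atpif1* (an inhibitor of the ATP synthase), which are not subunits. Of 13 regulators of mitochondrial biogenesis, 1 was higher, *Polg*, the mitochondrial DNA polymerase, at 0.56 (SE 0.12, adjusted p = 0.0456). That is 7.69% of them, near the 6.77% of all genes. The median of the regulators was -0.29, and with the block 5 were lower and 2 higher. Of 13 tricarboxylic acid cycle genes 1 was lower (median -0.03), and 1 lower and 1 higher with the block. Of 76 cytosolic ribosomal protein genes 2 were higher and 0 lower (median 0.07), and 16 higher and 8 lower with the block. With the block the shares lower, in the order of these lists, were 61.3%, 39.5%, 30%, 38.5%, 7.69% and 10.5%, against 23.6% of all genes. The shares higher were 2.67%, 6.98%, 10%, 15.4%, 7.69% and 21.1%, against 25.6%. No gene carried a symbol sought for the mitochondrial genome, so its genes were not analysed here.

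Replicate 2 was compared with replicate 1, both genotypes together, to ask how far undescribed differences between same-condition libraries reached these genes. Of the 67, 5 were higher and 5 lower, where 21.1% of all genes tested were higher and 19.7% lower. The median was 0.02, the same as over all genes. *Atp5g1* was lowest, with 209 FPKM in OE-2 and 198 FPKM in Con-2, against 293 (OE-1) and 283 (Con-1), and had a log2 fold change of -0.60 (SE 0.08, adjusted p = 0.00234). *Atp5g3* had 180 FPKM in OE-2 and 168 FPKM in Con-2, against 210 (OE-1) and 210 (Con-1), with -0.37 (SE 0.08, adjusted p = 0.00994), so both replicate 2 libraries were below both replicate 1 libraries in each of these genes. *Atp5g2* was at 0.14 and did not pass (adjusted p = 0.183). The core complex I gene *Ndufs3* and the accessory *Ndufb9* were also lower, at -0.37 and -0.27 (adjusted p = 0.0255 and 0.0471).

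On the higher side, *Ndufv3*, an accessory subunit near the NADH site, had 96.8 FPKM in OE-2 and 108 FPKM in Con-2, against 65.9 (OE-1) and 55.6 (Con-1), and a log2 fold change of 0.69 (SE 0.13, adjusted p = 0.00633). *Atp5s*, the least abundant, had 7.16 FPKM in OE-2 and 6.66 FPKM in Con-2, against 2.77 (OE-1) and 2.27 (Con-1), with 1.29 (SE 0.19, adjusted p = 0.00282). *Ndufa7*, *Ndufb3* and *Atp5l* were higher by 0.35, 0.37 and 0.23 on the log2 scale (adjusted p = 0.0179, 0.0345 and 0.0438). Complex medians were 0.06 for complex I, 0.06 for II, 0.04 for III, 0.02 for IV and -0.05 for V, and no gene of complexes II, III or IV passed. *Atp5g1* kept its call in every alternative run, and *Atp5s* in every one but the minimum mean of 5 FPKM, which left it out of the test. The other 8 did not keep theirs in every run. Calls were lost in the runs without Con-1 or without Con-2, which leave 1 library in a replicate group. Calls also fell over all genes tested in those runs. Some calls were also lost with all 6 libraries, where 3 genes were higher by DESeq2 and 3 with no filter. Over all genes tested, 1976 were higher by DESeq2 and 2744 with no filter, against 2911 in the main fit. On log2 FPKM, 19 were higher and 3 lower, and with a minimum mean of 5 FPKM, 10 were higher and 4 lower. Pluripotency markers moved too, with 3 of 6 lower in replicate 2. Higher were 3 of 7 fibroblast or feeder and 2 of 5 trophectoderm markers. Of all genes tested, 21.1% were higher and 19.7% lower. Another 2 trophectoderm markers were below 0. The lowest was *Cdx2* at -1.33, which did not pass (adjusted p = 0.163) and stood at 0.05 to 0.15 FPKM in libraries 1 and 2. The part of these markers in the result was not tested.

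Of the other pathway genes, 35 of 75 mitochondrial ribosomal protein genes were lower in replicate 2 and 0 higher (median -0.25), and 5 of 13 regulators were lower and 0 higher. The 5 were *Twnk*, the mitochondrial DNA helicase, *Pprc1*, a PGC-1 family coactivator, the transcription factor *Yy1*, and *Tfb2m* and *Tfam*, which act at mitochondrial promoters, with log2 fold changes of -0.83, -0.69, -0.64, -0.43 and -0.32. Of 20 further subunit genes 6 were higher and 0 lower, namely *Ndufa4l2*, *Cox4i2*, *Cox7a1*, *Cox6b2*, *Cox7a2l* and *Cox8a*. *Ndufa4l2*, known to be induced by low oxygen, had 76.0 FPKM in OE-2 and 99.5 FPKM in Con-2, against 22.2 (OE-1) and 5.61 (Con-1). *Cox4i2*, an isoform of *Cox4i1*, had 13.4 FPKM in OE-2 and 15.1 FPKM in Con-2, against 6.09 (OE-1) and 3.62 (Con-1), and *Cox7a1*, the heart and muscle isoform, had 28.8 FPKM in OE-2 and 26.2 FPKM in Con-2, against 15.4 (OE-1) and 10.5 (Con-1). Log2 fold changes were 2.59 (SE 0.52, adjusted p = 0.00806), 1.46 (SE 0.24, adjusted p = 0.00407) and 1.00 (SE 0.19, adjusted p = 0.00677). *Cox6b2*, *Cox8a* and *Cox7a2l* were higher by 0.69, 0.38 and 0.33 on the log2 scale (adjusted p = 0.00514, 0.0133 and 0.0255). *Cox4i1* itself was at 0.02. Of 43 assembly factor genes 6 were higher and 8 lower (14.0% and 18.6%). Of 13 tricarboxylic acid cycle genes 2 were higher and 1 lower (15.4% and 7.69%), and of 76 cytosolic ribosomal protein genes 9 and 2 (11.8% and 2.63%). The mitochondrial ribosomal protein genes had 46.7% lower, the regulators 38.5% lower and the further subunit genes 30% higher. Of all genes tested, 21.1% were higher and 19.7% lower.

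OE was set against Con over the 4 D0 libraries to ask whether *Dppa3* overexpression moved these genes. None of the 67 passed in either direction, with or without the block, and 0 had an unadjusted p under 0.05 in either fit. DESeq2 and limma also called 0 of the 67. At an unadjusted p under 0.05, 58 of all 13494 genes tested were higher and 4 lower without the block. With it 583 were higher and 490 lower. Without the block 0% of all genes tested passed, and with it 0.763% were higher and 0.126% lower. *Dppa3* itself, at 5.75 on the log2 scale, did not pass without the block (adjusted p = 0.43). With the block *Dppa3* passed (adjusted p = 6.35e-15). The 0 calls without the block therefore do not show that the OXPHOS genes kept their levels. Log2 fold changes with the block ran from -0.19 for *Ndufs8* (SE 0.12) to 0.14 for *Ndufs4* (SE 0.11), with a median of -0.05. The highest *Atp5g1* libraries were OE-1 and Con-1 alike, and its OE over Con log2 ratios were -0.01 in pair 1, 0.03 in pair 2 and 0.07 in the D7 pair.

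Within the pairs, the median log2 OE over Con ratio of the 67 genes was -0.05 in pair 1, -0.07 in pair 2 and 0.02 in the D7 pair, with 45, 54 and 32 genes below 0. These ratios have no replicates and no test. OE was below Con in all 3 pairs for 23 genes and above in 7, where 16.5% of all genes tested were below and 14.5% above. Of the ribosomal protein genes, 54 of 76 cytosolic and 23 of 75 mitochondrial ones were also below in all 3 pairs. By complex, 9 of 36 genes were below in all pairs in complex I, 1 of 4 in II, 2 of 7 in III, 1 of 3 in IV and 10 of 17 in V. Genes below in all pairs included *Atp5b*, with 932 FPKM in OE-D7 against 952 in Con-D7, 1049 in OE-2 against 1129 in Con-2, and 968 in OE-1 against 1013 in Con-1. *Cox5b* had 154 FPKM in OE-D7 against 160 in Con-D7, 148 in OE-2 against 159 in Con-2, and 142 in OE-1 against 159 in Con-1. Neither passed the test over libraries 1 and 2 (adjusted p = 0.642 and 0.63 with the block).

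**Figure D5:**
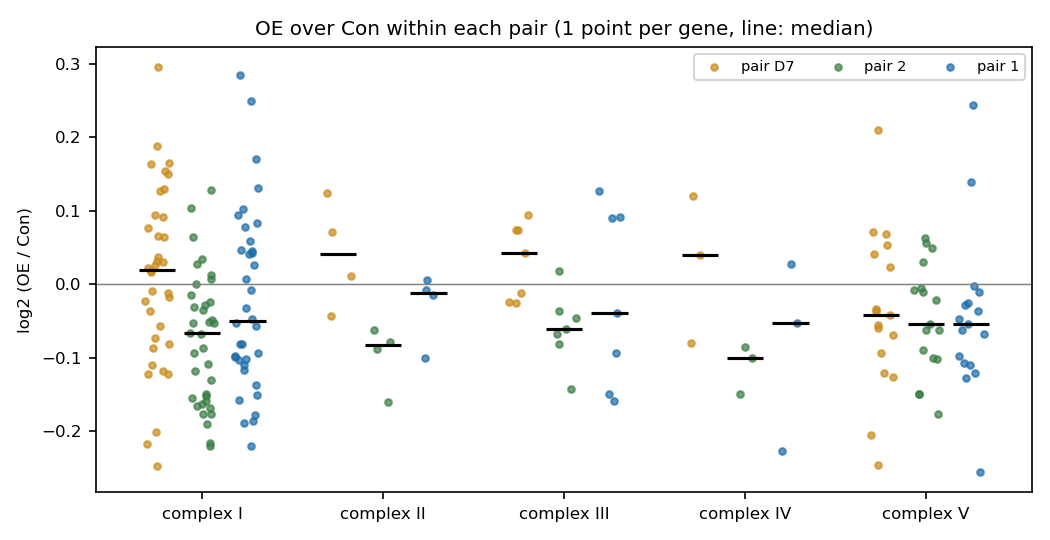
Log2 ratio of OE over Con (y axis) for each OXPHOS gene (points) by complex (x axis) in the D7 pair, pair 2 and pair 1 (colours), with medians as lines. Complex V medians are -0.04 in the D7 pair, -0.05 in pair 2 and -0.05 in pair 1, and those of the other complexes are above 0 in the D7 pair.

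Among the 20 further subunit genes, 1 was lower in OE with the block, the core complex III gene *Uqcrc1* that the selection left out. It had 120 FPKM in OE-D7 against 137 in Con-D7, 142 in OE-2 against 173 in Con-2, and 150 in OE-1 against 188 in Con-1. Its log2 fold change over libraries 1 and 2 was -0.35 (SE 0.07, adjusted p = 0.0265), and it did not pass without the block. Its complex III neighbours *Uqcrc2* and *Uqcrfs1* were at 0.06 and -0.10. Of the mitochondrial ribosomal protein, assembly factor, regulator, tricarboxylic acid cycle and cytosolic ribosomal protein genes, 0 passed in either direction. At an unadjusted p under 0.05 with the block, 1, 1, 0, 0 and 2 of them were higher and 0, 0, 2, 0 and 11 lower. Of all 13494 genes tested, 583 were higher and 490 lower at that level.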

How the data were processed

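Total RNA was extracted with TRIzol and sequenced on BGISEQ-500. The authors mapped reads to mm10 with Bowtie2 and used RSEM for the estimated counts they deposited. They also deposited FPKM values, scaled for transcript length and depth. HISAT and GRCm38.p6 stand in the submitters' processing notes instead, and versions are not given in the sources used here. The heads of the D7 count columns call them averages. Reads were not used here.

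A minimum mean of 0.5 FPKM selected the genes tested (13809 over 6 libraries, 13494 over 4). Rounded counts were tested with edgeR 4.0.16 in R 4.3.3 (TMM, quasi-likelihood F test, Benjamini-Hochberg adjustment, threshold 0.05), checked on simulated data. D7 against D0 used 6 libraries with genotype as a term. Replicate 2 against 1 used 6 libraries with genotype and pair. OE against Con used the 4 libraries numbered 1 and 2. DESeq2 1.42.0, limma 3.58.1, other filters, log2 of FPKM plus a pseudocount of 0.5, left-out libraries and a length trend were alternatives. Pair ratios used TMM-normalized log2 CPM.

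Deviations from the genotype mean of libraries with the same number correlated at 0.881, 0.756 and 0.889 over 12565 genes, and all other combinations at -0.03 or below, though deviations from a mean of 3 sum to 0. The replicate number was therefore also fitted as a block. D7 is a level of that block, so for D7 against D0 the block only narrows the spread. Separate cultures are stated in no source, and p-values reflect spread among these libraries alone, which may be technical.

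The genes and lists were chosen with earlier results of these data known. Named genes were the core subunits, in each comparison the 8 with the smallest p per direction, the highest and lowest levels, called genes opposite to their complex, *Dppa3* and *Uqcrc1*. *Ndufa4l2*, *Cox4i2*, *Cox7a1*, *Cox6b2*, *Cox7a2l*, *Cox8a* and *Cycs* were named after their values were seen. Of the genes counted, 1 is not reported here by itself.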

Additional observations from a re-analysis of the deposited data

Results flagged for a closer look

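The median log2 OE over Con ratio had 1 sign in pairs 1 and 2 and the opposite sign in the D7 pair, for all 67 genes and for 4 of the 5 complexes. It was -0.0475 in pair 1, -0.0662 in pair 2 and 0.0159 in the D7 pair for the 67 genes. Complex I had -0.04997, -0.0671 and 0.0197, complex II -0.0116, -0.0831 and 0.0415, complex III -0.0393, -0.0609 and 0.0422, and complex IV -0.0535, -0.10023 and 0.0401, in the same order of pairs. The D7 pair is 1 library of each genotype, so this difference was not tested.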

How the results depend on the processing

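For D7 against D0, the median log2 fold change of the 67 genes was -0.236 with no filter, -0.144 with a minimum mean of 5 FPKM, -0.0504 with the length trend subtracted and -0.209 to -0.137 with 1 library left out. Lower genes numbered 9 by DESeq2, 10 on log2 FPKM, 24 against pair 1 alone and 12 against pair 2 alone, and higher genes 2 against pair 1 alone. Over all genes, 995 and 606 of 13809, 3632 of 13745 and 1829 of 13992 were lower in the same order. Against pair 1 alone, 3966 of all genes were higher. With 1 D0 library left out, 0 to 6 of the 67 were lower, where 58 to 918 of all genes were. With the replicate block, 29 of the 67 were lower and 1 higher, and this fit gave 24 lower by DESeq2, and 29 lower and 1 higher by limma. Over all genes tested, 3256, 2565 and 3332 were lower in the same order. With the block and 1 library left out, 17 to 24 were lower, 0 to 1 higher, and the median was -0.202 to -0.134. The block fits by DESeq2 and limma, and those with a library left out, were chosen after seeing the data.

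For replicate 2 against 1, the median was -0.0145 with no filter, 0.0903 with a minimum of 5 FPKM, 0.118 on log2 FPKM, -0.00789 with the length trend subtracted and -0.0257 to 0.054 with 1 library left out. Higher genes numbered 3 by DESeq2, 3 with no filter, 10 with a minimum of 5 FPKM, 19 on log2 FPKM, 9 without the D7 pair and 1 to 9 with 1 library left out, and lower genes 3 on log2 FPKM and 1 to 7 with 1 left out. Over all genes, log2 FPKM gave 3369 higher and 1922 lower, against 2911 and 2722.

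For OE against Con, the median was -0.0289 with a minimum of 5 FPKM, -0.00436 on log2 FPKM, -0.033 with the block over 6 libraries, -0.0131 with the length trend subtracted and -0.0665 to -0.0394 with 1 library left out, and 0 genes were called in any setting. Causes of these shifts were not tested. Depth was near equal, and 2 or 3 libraries per genotype limit all tests.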
